A study of Mus musculus with 13 samples.

Results

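Accessible regions around 10 genes of the Notch pathway were examined by ATAC-seq, in which the Tn5 transposase inserts sequencing adapters into open chromatin. The genes were the receptor genes Notch1, Notch2 and Notch3, the ligand genes Dll1, Dll3, Jag1 and Jag2, and the target genes Hes1, Hes5 and Hey1. A region called by the authors' peak caller belonged to a gene when its strongest summit lay inside the gene body or within 100 kb of it. This rule gave 2575 of the 1360329 regions listed in 13 libraries. Overlapping regions of different libraries were joined, which left 381 of 264483 joined regions near the 10 genes, from 25 at Notch3 to 57 at Notch2. At the border of the rule, the outermost region kept lay 99.75 kb from Jag1, with a fold between 8.44 and 9.09 in 4 libraries, and the closest region left out lay 100.49 kb from Hey1, with a fold between 5.18 and 7.20 in 12 libraries. The libraries came from mouse embryos of the B6CBAF1 strain at E12.5, with 50000 cells each. The forebrain (FB) and the forelimb, divided into a distal (DFL) and a proximal part (PFL), were sampled from wild-type embryos (wt) and from embryos homozygous for the II1TDOM 542 allele (542), with 2 replicates in each of 6 groups. In the 542 allele an extra copy of the limb enhancer II1, with a reporter gene, sits in the regulatory domain on the telomeric side of the HoxD cluster. Each replicate was a pool of several embryos. A further wt DFL library, an earlier sample analysed anew by the submitters, entered no group and its values are given only where it is named. Notch1 and Jag1 lie on chromosome 2, the chromosome of the insertion. Jag1 lies beyond the insertion, and its positions in 542 libraries were moved back by 4218 bp.

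Notch receptors are cut upon contact with a ligand on a neighbouring cell, and the released intracellular part enters the nucleus and binds the DNA-binding protein RBPJ. The best known targets of this complex are the genes of the Hes and Hey families, which encode basic helix-loop-helix repressors. In the forebrain the pathway keeps neural progenitor cells from differentiating, with Hes1 and Hes5 as its main effectors there. In the limb it takes part in the function of the apical ectodermal ridge, in vessel growth and in the separation of the digits.

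The sequences below belong to regions on which the tissue comparisons turn. The first pair gives the 250 bases before the RefSeq start of Hes5, whose start region was strong in FB alone, and of Notch1, whose start region was stronger in limb. The others give 200 bases centred on the summit of regions that were strong in FB, in limb or in DFL, as read from mm10 and named by the gene and the distance of the summit from the annotated 5′ end of the gene (minus for upstream, plus for downstream). Capitals mark matches on either strand to 4 short motifs: TGGGAA, the core bound by RBPJ; CAGCTG, an E-box; TAATTA, the core of many homeodomain proteins; and CAATAAA, a motif of HOX13 proteins. In the pair from RefSeq only TGGGAA was marked.
Hes5 start (chr4:154960673-154960922, GRCm38.p6, plus strand): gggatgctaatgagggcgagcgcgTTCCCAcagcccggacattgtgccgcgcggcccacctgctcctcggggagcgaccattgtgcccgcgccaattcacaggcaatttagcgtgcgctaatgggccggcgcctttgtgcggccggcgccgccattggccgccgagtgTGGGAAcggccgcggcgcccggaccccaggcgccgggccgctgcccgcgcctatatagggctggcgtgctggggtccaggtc
Notch1 start (chr2:26503823-26504072, GRCm38.p6, minus strand): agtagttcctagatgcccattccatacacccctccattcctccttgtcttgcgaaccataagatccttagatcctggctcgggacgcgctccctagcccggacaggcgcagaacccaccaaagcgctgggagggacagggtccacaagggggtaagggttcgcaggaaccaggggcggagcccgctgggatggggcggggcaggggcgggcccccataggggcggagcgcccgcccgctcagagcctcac
Hes1 +65.3 kb (chr16:30129554-30129753, mm10, plus strand): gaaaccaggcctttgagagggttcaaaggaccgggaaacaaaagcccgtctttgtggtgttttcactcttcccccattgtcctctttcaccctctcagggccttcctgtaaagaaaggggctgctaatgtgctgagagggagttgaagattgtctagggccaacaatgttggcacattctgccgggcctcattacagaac
Notch2 +198.0 kb (chr3:98211392-98211591, mm10, plus strand): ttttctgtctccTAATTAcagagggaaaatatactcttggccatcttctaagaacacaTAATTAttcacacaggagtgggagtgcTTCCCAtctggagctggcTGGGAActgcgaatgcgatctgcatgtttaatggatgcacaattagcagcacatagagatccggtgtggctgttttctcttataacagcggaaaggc
Jag1 -36.6 kb (chr2:137153178-137153377, mm10, plus strand): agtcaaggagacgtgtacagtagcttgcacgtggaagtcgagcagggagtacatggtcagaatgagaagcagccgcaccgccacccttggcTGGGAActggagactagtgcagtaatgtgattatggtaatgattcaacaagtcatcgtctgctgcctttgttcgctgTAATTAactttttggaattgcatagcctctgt
Jag1 +28.8 kb (chr2:137087788-137087987, mm10, plus strand): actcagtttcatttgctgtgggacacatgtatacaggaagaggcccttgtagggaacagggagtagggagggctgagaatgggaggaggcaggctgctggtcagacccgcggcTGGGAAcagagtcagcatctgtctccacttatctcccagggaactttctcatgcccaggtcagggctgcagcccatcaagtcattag
Jag1 -20.5 kb (chr2:137137052-137137251, mm10, plus strand): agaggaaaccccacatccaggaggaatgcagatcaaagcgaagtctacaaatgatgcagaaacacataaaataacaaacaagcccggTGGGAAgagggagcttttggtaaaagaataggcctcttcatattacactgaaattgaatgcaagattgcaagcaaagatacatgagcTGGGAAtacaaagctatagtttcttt

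The 12 libraries held 85067 to 118297 regions each, from an estimated 37.5 to 70.7 M (mega) tags, with 162 to 211 regions near the 10 genes. All values below are the fold, that is the tags under the summit of a region over the local background of the same library, and a region without a value was not called, which does not show that it was closed. A region was taken as strong in a library when it was among its 50000 strongest. Of the 381 joined regions, 211 were strong in at least 1 library. Each DFL library had 99 to 107 strong regions near the 10 genes, each PFL library 107 to 115 and each FB library 114 to 129. Strong regions within 10 kb of 8 forebrain genes numbered 22 to 29 in FB libraries, 12 to 18 in DFL and 13 to 15 in PFL. Those of 6 limb mesenchyme genes numbered 6 to 9 in FB, 23 to 24 in DFL and 17 to 23 in PFL, and Tbx5 had 0 in all FB libraries. Those of 3 distal genes numbered 8 to 10 in DFL, 4 to 7 in PFL and 2 to 4 in FB, where Hoxa13 had 0. Those of 2 proximal limb genes numbered 10 to 11 in DFL, 12 in PFL and 13 to 19 in FB. This sum was carried by Meis1, with 11 to 17 in FB, whereas Shox2 had 2 in each DFL library, 3 to 5 in PFL and 2 to 3 in FB. Marker genes of other cell types were also counted. Strong regions at 6 blood and endothelial genes numbered 9 to 12 in FB and 6 to 8 in either limb tissue, those at 3 muscle genes 3 to 6 in DFL, 4 to 7 in PFL and 6 in FB, and those at 4 ectoderm genes 4 to 7, 4 to 8 and 4 to 5 in the same order. Krt5 had 0 in every library, Gata1 and Tie1 had at most 1, and Pax3, a muscle gene of the list, had 3 to 5 in FB. These counts do not show whether such cells were present. The part of such cells in the differences between tissues was not tested. In these bulk samples fewer cells with an open region and less opening per cell cannot be told apart.

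Accessibility at the starts of the genes was shared by most members. For 7 of 10 genes a region within 500 bp of a coding start was strong in all 12 libraries, beside 56.2% of all 21829 protein-coding genes. The exceptions were Hes5, Dll1 and Dll3. Of 34 further genes of the pathway, among them ligands, proteases, glycosyltransferases and cofactors, 26 had such a region in all libraries. Notch4, Hes3 and Hes7 had none in any library, and Dll4, the ligand of vessels, had it in 1 DFL library only. In the fit described with the counts of tissue differences, 1 of 29 start regions of these genes was higher in DFL than in PFL (beside 7.15% of all regions) and 0 lower (beside 6.29%). In DFL against FB, 6 of 29 were higher (beside 17.1%) and 3 lower (beside 17.4%), and in PFL against FB, 2 of 30 were higher (beside 17.0%) and 6 lower (beside 17.5%).

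**Figure D1:**
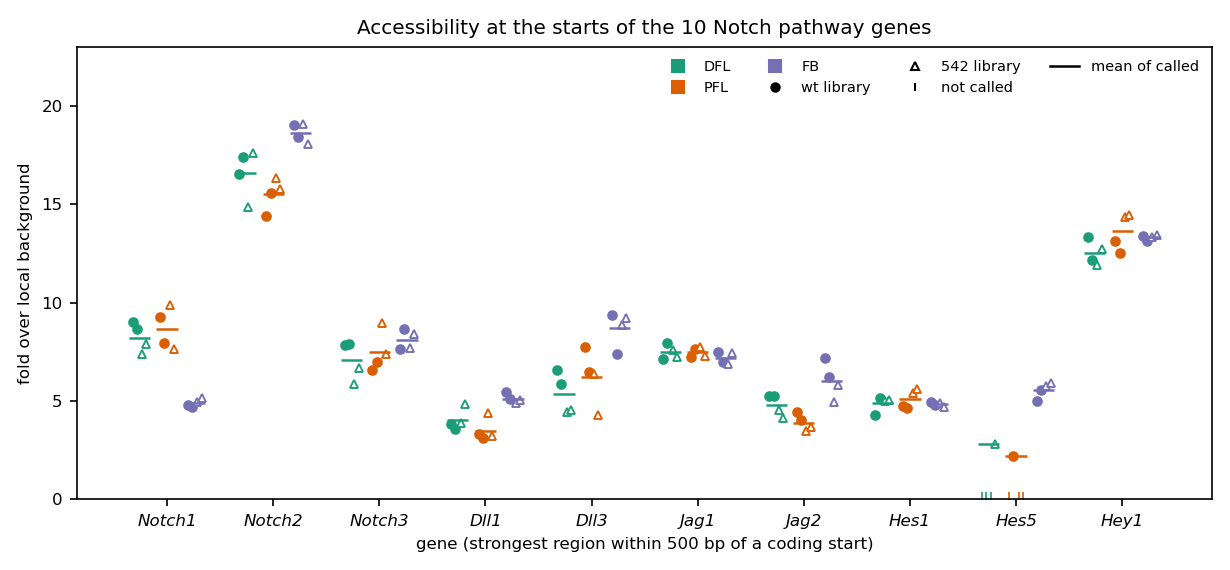
Fold over local background (y axis, no unit) of the strongest region within 500 bp of a coding start of each gene (x axis) in the 12 libraries. Filled circles are wt libraries, open triangles 542 libraries, bars the mean of the called libraries of a tissue and ticks at the bottom libraries in which the region was not called. Hes5 was called in all FB libraries, at 4.98 to 5.88, and in only 2 of 8 limb libraries, and Notch1 was lower in FB than in every limb library.

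The leading start region of Hes5, unlike those of the other 9 genes, was strong in FB alone. This region (Hes5 -0.2 kb, chr4:154960445-154961098) had folds of 4.98 and 5.57 in the wt FB libraries and of 5.75 and 5.88 in 542 FB. In limb it was called in a single 542 DFL library at 2.82 and a single wt PFL library at 2.2, and in none of these 8 libraries was it among the 50000 strongest. All 4 FB values thus lay above both limb values. The RefSeq promoter of Hes5 printed above held 2 TGGGAA matches, which begin 226 and 82 bases before the start. Of the 9 RefSeq promoters that matched 8 of the member genes it was the only 1 with this motif, which 25.6% of all 32851 promoters of 300 bases hold. No RefSeq promoter was matched to Hes1 and Hey1, but within 150 bp of the summit the motif was also found in their start regions, with 1 match at Hes1 -0.2 kb, 2 at Hes1 +0.8 kb and 2 at Hey1 +0.1 kb. Upstream of Hes5, the regions at -8.0 kb and -12.2 kb were also called in FB alone, at 4.14 to 5.66 and 4.13 to 4.70. By contrast, the intergenic region at -14.4 kb was higher in limb, with 8.91 to 10.5 in DFL, 7.14 to 9.62 in PFL and 5.39 to 6.64 in FB. The start of the neighbouring gene Pank4, 3.2 kb downstream of the Hes5 start, was also higher in limb, by 0.74 ± 0.11 (SE, log2) in DFL over FB (adjusted p = 0.000275) and by 0.53 ± 0.12 in PFL over FB (adjusted p = 0.00549). The FB regions at and upstream of the Hes5 start therefore lay between these 2 sites that were stronger in limb. They were not an unbroken block, since the region at -2.5 kb was strong in every library. That region passed no test between tissues, with 0.38 ± 0.15 (log2) for DFL against FB (adjusted p = 0.0813) and 0.21 ± 0.14 for PFL against FB (adjusted p = 0.287). A further region strong in FB alone, at +64.0 kb of Hes5, had a mean fold of 6.29 ± 1.03 in FB (SD, n = 4).

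Hes1 and Hey1, the other target genes, were open at their starts in every library. The region over the coding start of Hes1 (Hes1 +0.8 kb, chr16:30065030-30065448) had a fold of 4.86 ± 0.38 (SD, n = 4 here and for the means that follow) in DFL, 5.09 ± 0.47 in PFL and 4.83 ± 0.10 in FB. A second region lay over the 5′ end of its non-coding transcript (Hes1 -0.2 kb), at 6.13 ± 0.31, 5.96 ± 0.50 and 6.56 ± 0.28. Neither passed the test between any 2 tissues. The start of Hey1 (chr3:8666619-8668019) was at 11.9 to 13.3 in DFL, at 13.6 ± 0.93 in PFL and at 13.3 ± 0.15 in FB, and the difference of 0.22 ± 0.06 (SE, log2) between PFL and FB passed the test (adjusted p = 0.0202) but was lost, with an adjusted p of up to 0.0588, without wt PFL replicate 1, 542 PFL replicate 2, wt FB replicate 1 or 542 FB replicate 2.

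Of the receptor genes, Notch1 alone had a leading start region that passed the test between tissues. Its RefSeq start lies 12.8 kb inside the annotated gene, and the region there (Notch1 +12.8 kb, chr2:26503321-26504274) had folds of 9.01, 8.63, 7.36 and 7.88 in DFL, of 9.26, 7.92, 9.89 and 7.64 in PFL and of 4.76, 4.68, 4.93 and 5.12 in FB. The limb and FB values did not overlap. The difference was 0.87 ± 0.13 (SE, log2) for DFL over FB (adjusted p = 0.000369) and 0.98 ± 0.13 for PFL over FB (adjusted p = 0.000221). A weaker region beside the upstream 5′ end (Notch1 -0.5 kb) was called in all 8 limb libraries, at 3.53 to 4.90, and in none from FB. The Notch2 start (chr3:98013056-98014300) was the strongest of the 10, at 16.6 ± 1.25 in DFL, 15.5 ± 0.82 in PFL and 18.6 ± 0.49 in FB. It passed no test between tissues, with -0.11 ± 0.06 (log2) for PFL against FB (adjusted p = 0.151). The Notch3 start (Notch3 +0.7 kb) was at 7.07 ± 0.97, 7.46 ± 1.04 and 8.10 ± 0.51, with -0.05 ± 0.13 (log2) for DFL against FB (adjusted p = 0.812) and 0.08 ± 0.12 for PFL against FB (adjusted p = 0.66).

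The starts of 3 ligand genes were lower in a limb tissue than in FB. Dll1, a ligand of neural progenitors and of the forming somites, had folds of 3.56 to 4.83 in DFL, 3.11 to 4.36 in PFL and 4.87 to 5.43 in FB at its start (Dll1 +0.8 kb, chr17:15374681-15376745). Only the comparison of PFL with FB passed the test, at -0.53 ± 0.15 (SE, log2; adjusted p = 0.0177), and it was lost, with an adjusted p of up to 0.0959, without wt PFL replicate 2, 542 PFL replicate 2 or wt FB replicate 1. A narrow region at the other RefSeq start of Dll1 (Dll1 -0.2 kb) was called in FB alone among the 12 libraries, at 2.55 to 2.88. However, it also had a fold of 2.79 in the additional wt DFL library. FB libraries held 51.4 to 70.7 M tags, limb libraries 37.5 to 54.5 M and the additional library 78.0 M. The part of depth in calls of such weak regions in FB and not in limb was not tested. Dll3, a divergent member of the ligand family that does not activate receptors on neighbouring cells, was lower at its start in DFL (4.42 to 6.59) than in FB (7.36 to 9.38), by -0.59 ± 0.13 (adjusted p = 0.00548), while PFL lay between them at 4.29 to 7.71. Jag2, the ligand of the apical ectodermal ridge, was lower in PFL (3.45 to 4.42) than in FB (4.93 to 7.18), by -0.55 ± 0.14 (adjusted p = 0.0113). Its DFL values, 4.11 to 5.27, overlapped both. The start of Jag1 (chr2:137116201-137117758) was at 7.47 ± 0.38, 7.48 ± 0.25 and 7.19 ± 0.32, with overlapping values. It passed no test, with the biggest difference at 0.25 ± 0.12 (log2, PFL over FB, adjusted p = 0.121).

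Strong regions were then sorted by the tissues that held them. Of the 211 strong regions, 55 (26.1%) were strong in every library, beside 17.5% of all 110364 strong regions. FB alone had 23 regions that were strong in its 4 libraries and in none from limb, which is 10.9% beside 8.78% of all regions. Both limb tissues, without FB, had 8 (beside 4.83%), DFL alone 3 (beside 1.93%) and PFL alone 1 (beside 1.81%). PFL and FB shared 1 (beside 0.110%) and DFL and FB 0 (beside 0.395%). The other 120 were strong in some libraries of a tissue only. Of the 55 shared regions, 23 lay within 500 bp of the start of another gene in the window, whereas none of the 23 FB regions did. The window of Dll3, for example, held 11 other coding genes. Such positions were not counted over all shared and all FB regions of the genome. Whether this contrast is particular to the 10 genes was therefore not tested. The windows of Hes1 and Hey1 held no other coding gene.

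**Figure D2:**
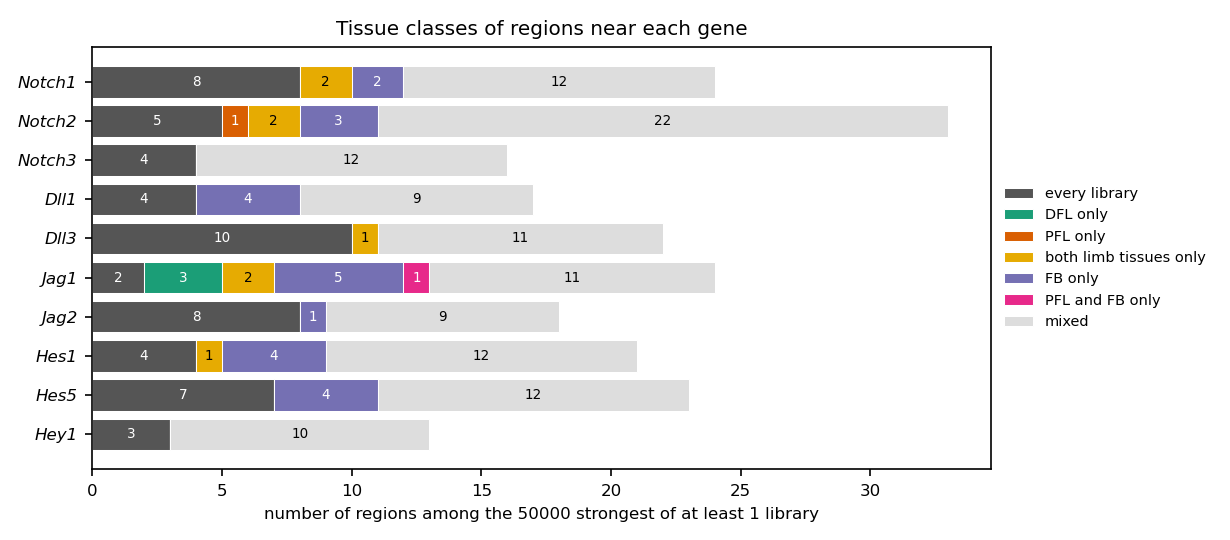
Number of regions near each gene (y axis) that were among the 50000 strongest of at least 1 library (x axis), split by the tissues whose 4 libraries all held the region while the other tissues held it in none. Mixed regions were in part of the libraries of a tissue. Jag1 had the most tissue classes, with 3 regions in DFL alone, 2 in both limb tissues, 5 in FB alone and 1 in PFL and FB.

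All 3 DFL regions were near Jag1. The region at -20.5 kb (chr2:137136824-137137785, intergenic) had folds of 5.54, 7.03, 6.80 and 9.77 in the DFL libraries and 2.87 in a single PFL library. The region at -74.0 kb (chr2:137190134-137191219, intergenic) was at 5.17 to 8.12 in DFL and was called in no PFL or FB library. An intronic region at +20.9 kb was at 5.01 to 8.5 in DFL and at 2.54 and 2.86 in 2 PFL libraries. The additional wt DFL library also held these 3 regions, at 10.7, 8.11 and 10.5.

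Jag1 also had 2 regions of both limb tissues. The intronic region Jag1 +28.8 kb (chr2:137087308-137088493) was the strongest of its class, at 11.4 ± 0.30 in DFL and 10.3 ± 1.11 in PFL, and was not called in FB. The region at -49.7 kb (chr2:137165807-137166882) was graded, with 10.7, 10.0, 11.2 and 10.7 in DFL, 7.30, 6.56, 5.78 and 5.51 in PFL and 2.66 in a single FB library. DFL exceeded PFL by 0.71 ± 0.12 (SE, log2; adjusted p = 0.00173), and this call held without any 1 library.

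The FB regions of Jag1 were separate elements. The region at -36.6 kb (chr2:137153010-137154301), printed above with its TGGGAA and TAATTA matches, was at 9.70 to 11.5 in FB, at 3.06 to 4.36 in PFL and at 3.52 to 3.87 in 3 of 4 DFL libraries. PFL was lower than FB by -1.36 ± 0.14 (log2; adjusted p = 3.97e-05). Regions at +134.9 kb, in an intron of Slx4ip, and at +24.0 kb, in a coding exon of Jag1, were called in FB alone, at 8.44 to 9.09 and 7.17 to 8.5. The former had a fold of 2.51 in the additional wt DFL library. Weaker FB regions lay in introns at +6.5 kb (3.14 to 3.86) and +17.1 kb (4.05 to 4.92), the latter also called at 2.52 and 3.19 in 2 PFL libraries. The region at +15.3 kb was strong in PFL (4.56 to 6.42) and FB (6.45 to 7.79) and was called at 3.41 and 2.38 in 2 DFL libraries.

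**Figure D3:**
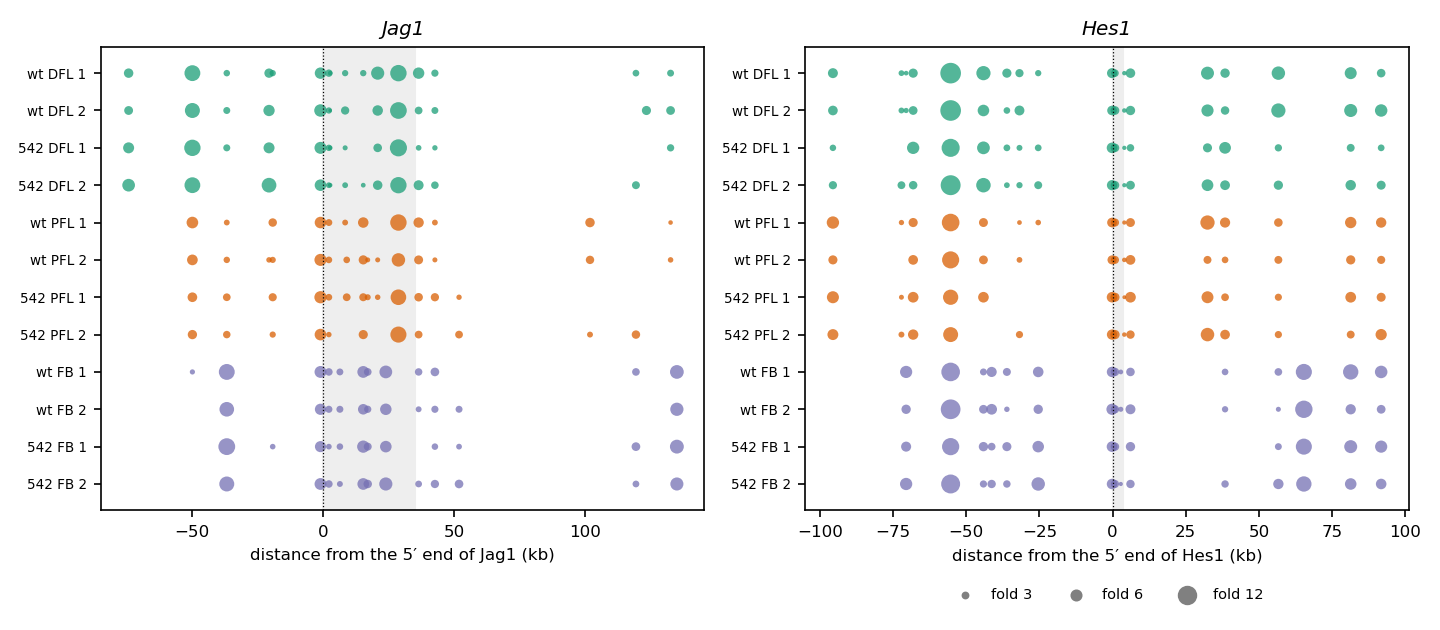
Regions around Jag1 and Hes1 in each of the 12 libraries (rows), by the distance of the summit from the 5′ end of the gene in kb (x axis). The area of a point grows with the fold, the grey band is the gene body, and regions strong in no library are left out. Points at -74.0, -20.5 and +20.9 kb of Jag1 run through the DFL rows and those at +134.9 and +24.0 kb through the FB rows, whereas Hes1 +65.3 kb is in FB rows alone.

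Hes1 had 4 FB regions, 1 region of both limb tissues and a start that was open throughout. The intergenic region at +65.3 kb (chr16:30129189-30130460) had folds of 10.9, 12.0, 10.9 and 10.3 in FB and was called in no limb library. Those at -70.5, -41.3 and -25.4 kb, the latter pair in introns of 9030404E10Rik, were at 5.53 to 7.78, 4.36 to 6.59 and 5.53 to 8.72 in FB. The region at -70.5 kb was also called in both wt DFL libraries, at 2.32 and 2.69, and that at -25.4 kb in 4 limb libraries, at 2.91 to 4.53. Only 2.4 kb from the FB region at -70.5 kb, the region at -68.1 kb (chr16:29996003-29997268) had the reverse pattern, at 4.92 to 7.82 in DFL and 5.40 to 6.58 in PFL and not called in FB. The region at -44.1 kb, in an exon of the non-coding gene 4632428C04Rik, was higher in DFL (7.24 to 9.6) than in FB (3.82 to 5.54), by 1.02 ± 0.17 (log2; adjusted p = 0.00085).

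Of the 87 regions tested between DFL and FB, a region of Dll1 had the largest difference. The intergenic region at +33.6 kb (chr17:15342760-15343715) had folds of 17.8, 14.2, 15.2 and 15.9 in FB and of 6.59, 3.85, 4.79 and 2.83 in DFL, a difference of -1.78 ± 0.21 (SE, log2; adjusted p = 8.29e-05). In PFL it was called in 3 of 4 libraries, at 3.38, 6.14 and 6.19. The region at +53.5 kb was also lower in DFL, at 7.93 to 9.03 in FB and 2.63 to 4.72 in DFL (-1.08 ± 0.15, adjusted p = 0.000244). A region at +46.8 kb was called in PFL alone, at 3.70 and 4.52 in wt and 7.03 and 6.52 in 542. It lay between the 2 regions that were stronger in FB.

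Notch2 had regions of 3 tissue classes. Its leading FB region lay 198.0 kb downstream of the 5′ end (chr3:98210977-98211984, intergenic) at 14.6, 13.2, 8.74 and 9.39, with no call in limb. The intronic region at +73.1 kb (chr3:98085730-98087070) was the only region among the 50000 strongest of all 4 PFL libraries and of no other library, at 5.91 to 6.91 in PFL, 2.81 to 4.21 in DFL and 3.17 in a single FB library. DFL was lower than PFL by -0.79 ± 0.18 (log2; adjusted p = 0.00925), with an adjusted p of 0.0501 without 542 DFL replicate 1. Limb regions at -71.4 kb and +47.5 kb were at 4.69 to 6.79 and 3.30 to 4.89. The former was also called in 3 FB libraries at 2.25 to 2.69.

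Notch1 had limb regions and FB regions. Those at +22.1 kb (4.66 to 8.23) and, upstream of the gene, at -9.2 kb (5.56 to 8.59) were strong in limb alone, though the latter was called in 3 FB libraries at 2.91 to 3.97. Intronic regions at +30.8 kb (5.69 to 7.59) and +14.3 kb (2.88 to 3.85) were strong in FB alone, with further calls of 3.87 in 1 DFL library at the former and of 2.42 to 2.76 in 4 limb libraries at the latter. In Notch3, a coding exon at +23.5 kb was called in every library at 6.01 to 8.31 in DFL, 4.50 to 6.63 in PFL and 10.5 to 13.8 in FB. It was lower than FB by -0.57 ± 0.13 in DFL (log2; adjusted p = 0.00568) and by -0.86 ± 0.16 in PFL (adjusted p = 0.00192). Dll3 had 1 limb region, at -80.0 kb (4.12 to 6.59, also called in both wt FB libraries), and Jag2 had 1 FB region, in an intron at +7.0 kb (4.93 to 5.85, with 2.81 in a wt DFL library).

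**Figure D4:**
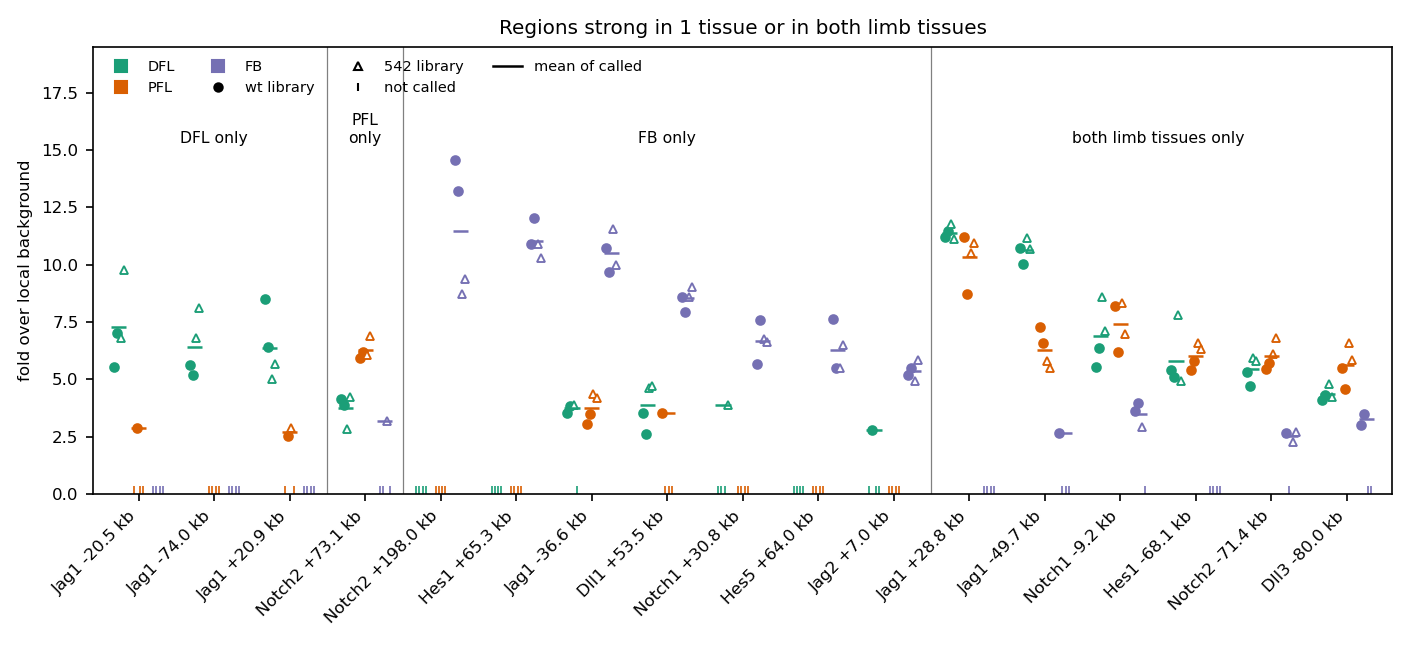
Fold over local background (y axis, no unit) of regions that lead their tissue class or are first in it for their gene (x axis), by library. Symbols are as in the plot of start regions, with ticks at the bottom for libraries without a call. Notch2 +198.0 kb and Hes1 +65.3 kb reach 14.6 and 12.0 in FB without a limb call, and Jag1 -49.7 kb steps down from DFL to PFL.

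Hey1 had no region of a single tissue class, and its differences lay in regions called in all 12 libraries. The intergenic region at -18.1 kb had folds of 18.2, 18.4, 15.1 and 17.5 in FB, of 8.19, 7.81, 10.5 and 9.15 in DFL and of 5.62, 7.09, 5.94 and 4.19 in PFL. FB was above DFL by 0.80 on the log2 scale (-0.80 ± 0.08 for DFL against FB, adjusted p = 2.8e-05) and PFL was lower still (-1.47 ± 0.13 against FB, adjusted p = 1.83e-05). The step from DFL to PFL was 0.60 ± 0.16 (adjusted p = 0.0199) and was lost, with an adjusted p of up to 0.0856, without wt DFL replicate 1, wt DFL replicate 2, 542 DFL replicate 1, wt PFL replicate 1 or 542 PFL replicate 2. The region at -41.9 kb had the opposite order, with DFL values of 10.0, 7.60, 12.6 and 9.19, PFL values of 4.57, 3.77, 5.40 and 4.79 and FB values of 3.15, 3.83, 3.55 and 3.85. DFL exceeded PFL by 1.02 ± 0.17 (adjusted p = 0.00129) and FB by 1.51 ± 0.17 (adjusted p = 4.52e-05), and both calls held without any 1 library. The region at -50.4 kb was higher in DFL (12.4 ± 0.65) and PFL (12.0 ± 1.01) than in FB (9.36 ± 0.76), by 0.58 ± 0.09 (adjusted p = 0.00046) and 0.57 ± 0.09 (adjusted p = 0.000523).

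These log2 differences come from a limma fit on quantile-normalised log2 folds over the regions called in all libraries of the 2 tissues compared, with Benjamini-Hochberg adjustment over all regions tested and a threshold of 0.05. A region missing in 1 library was not tested. Regions of a single tissue class thus entered only where weaker calls covered the other tissue, as at Notch2 +73.1 kb, Dll1 +53.5 kb and Jag1 -36.6 kb. Between DFL and PFL, 99 regions near the 10 genes were tested. DFL was higher in 6 (beside 7.15% of 43333 regions) and lower in 1 (beside 6.29%), and the median difference was 0.01 beside -0.01 over all regions. Leaving out any 1 library lowered the calls to between 3 and 5. They fell to 3 without wt DFL replicate 1 or wt DFL replicate 2, and to 4 without 542 DFL replicate 1, wt PFL replicate 1 or 542 PFL replicate 2. Between DFL and FB, 16 of 87 were higher in DFL (beside 17.1% of 33476) and 15 lower (beside 17.4%), with a median of 0.02 beside -0.01. Between PFL and FB, 10 of 81 were higher in PFL (beside 17.0% of 31147) and 15 lower (beside 17.5%), with a median of -0.03 beside 0.00. The 3 comparisons share libraries. The split depended on the scaling. Without normalization the median of all regions moved to -0.14 for DFL against FB and -0.16 for PFL against FB. For DFL against FB the split became 12 higher and 26 lower, beside 4075 and 11168 of all 33476 regions. For PFL against FB it became 6 and 32, beside 3258 and 11070 of 31147. With the medians of libraries set equal the splits were 19 and 15 (beside 6857 and 5083), and 17 and 11 (beside 7077 and 4546). No called region changed its direction under either scaling.

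**Figure D5:**
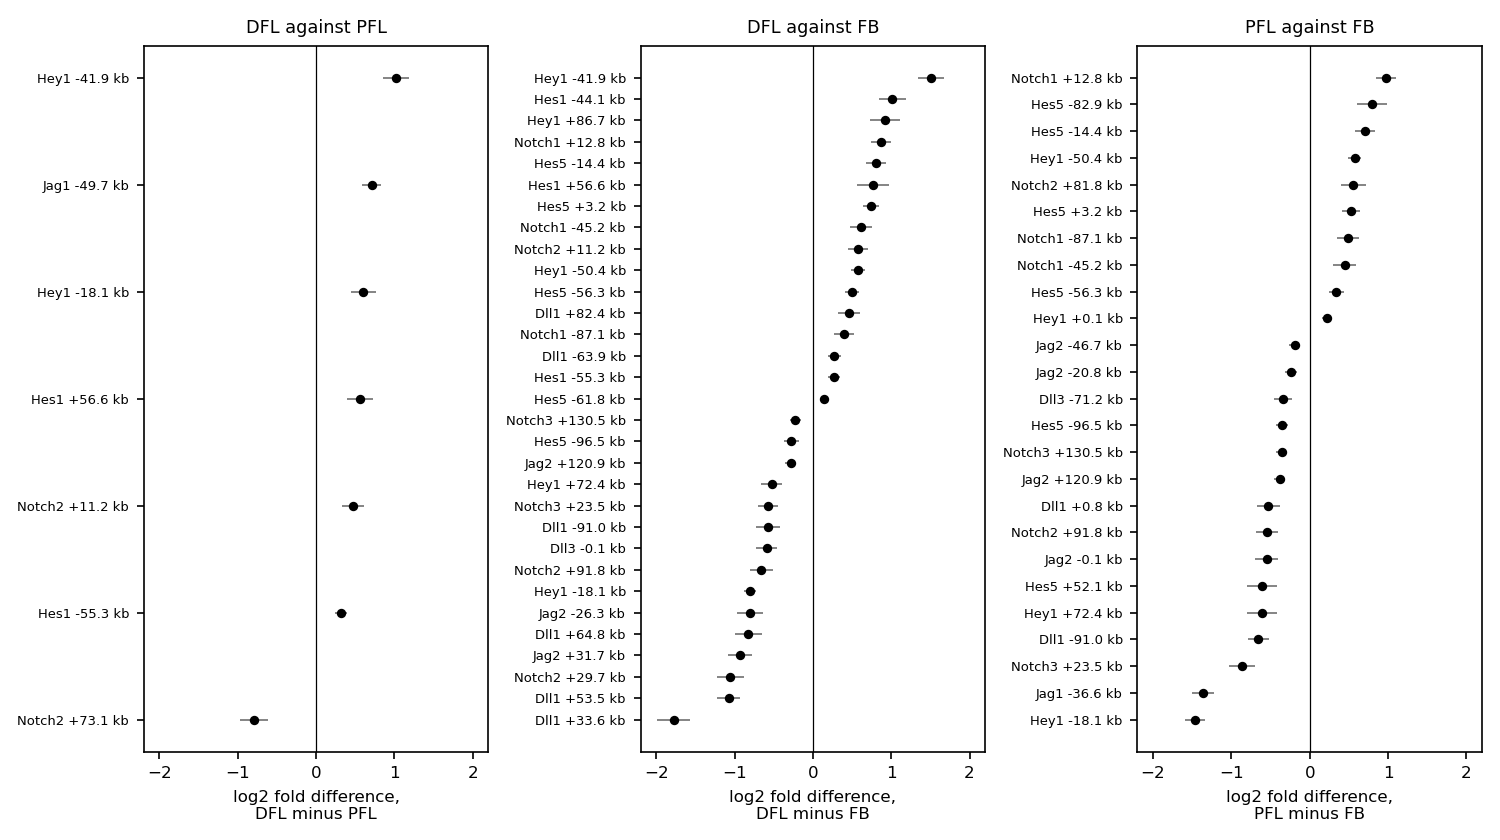
Log2 difference in quantile-normalised fold (x axis) of the regions (y axis) that passed the limma test between 2 tissues, with standard errors as bars (n = 4 libraries per tissue). DFL exceeded PFL and FB most at Hey1 -41.9 kb, by 1.02 and 1.51, and FB exceeded DFL most at Dll1 +33.6 kb, where the difference was -1.78.

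The genotypes were then compared within each tissue. In limma fits within each tissue, 0 of 124 regions differed between 542 and wt in DFL (beside 0.00979% of 61264), 0 of 115 in PFL (beside 0.00854% of 58516) and 0 of 145 in FB (beside 0.0228% of 65760), with 11, 3 and 7 regions at an unadjusted p under 0.05, beside 7052, 6606 and 6443 of all regions tested. With 2 libraries against 2, few regions were called anywhere in the genome. The median differences were -0.06, 0.06 and 0.05, beside 0.00 over all regions in each tissue. In FB the smallest p was that of Notch3 +75.4 kb, with 11.7 and 10.8 in wt and 14.8 and 16.9 in 542, at 0.53 ± 0.11 (SE, log2; adjusted p = 0.185). In DFL it was that of Notch1 +136.0 kb, at the start of Snapc4, with 19.6 and 16.2 in wt and 12.1 and 11.2 in 542 (-0.55 ± 0.12, adjusted p = 0.149). In PFL it was Hes5 -82.9 kb, with 16.7 and 12.1 in wt and 6.14 and 9.19 in 542 (-0.90 ± 0.21, adjusted p = 0.177). Notch2 +198.0 kb had in FB 14.6 and 13.2 in wt and 8.74 and 9.39 in 542 (adjusted p = 0.214). The effect of the genotype was also compared between tissues in 75 regions called in all libraries. None passed, beside 0, 0 and 1 of 28404 regions in all, with 8, 9 and 5 regions at an unadjusted p under 0.05 for DFL against PFL, DFL against FB and PFL against FB.

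Regions strong in a single genotype were few. In DFL 8 regions were strong in both wt libraries and neither 542 library (beside 2.56% of all strong regions) and 4 the reverse (beside 2.07%). In PFL there were 5 (beside 2.69%) and 5 (beside 2.15%), and in FB 3 (beside 1.66%) and 5 (beside 1.57%). Such a region can still be called in the other genotype at a lower rank, as at the Dll3 start, with 6.59 and 5.87 in wt DFL and 4.42 and 4.51 in 542 DFL, and at Hes5 +52.1 kb, with 4.10 and 5.08 in wt DFL and 6.74 and 6.18 in 542 DFL. Within PFL, Dll1 +46.8 kb and Dll1 +33.6 kb were strong in both 542 libraries and in neither wt library. Without a limit on the rank, over all deposited regions, wt had more regions of its own in limb. The counts were then 17 in wt only and 1 in 542 only in DFL (beside 3.57% and 1.17% of all 264483 regions), 22 and 2 in PFL (beside 4.46% and 0.761%) and 4 and 3 in FB (beside 2.22% and 1.13%). In limb the wt libraries were also the deeper ones, with 54.5 and 44.0 M tags against 41.3 and 40.2 M in DFL and 48.8 and 52.6 M against 37.9 and 37.5 M in PFL. In FB the depths overlapped, at 70.7 and 56.6 M against 64.5 and 51.4 M. The part of depth in these counts, and that of the different genomes to which the genotypes were mapped, was not tested.

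The motif TGGGAA lay within 150 bp of the summit in 78 of the 211 strong regions (37.0%), beside 27.3% of all 110364. It was in 14 of the 23 FB regions (60.9%), beside 26.6% of all 9687 FB regions, and in 5 of 8 limb regions, beside 30.6% of 5333. The FB regions with the motif were those of Hes5 at -12.2, -8.0 and -0.2 kb, of Hes1 at -70.5, -41.3, -25.4 and +65.3 kb, of Jag1 at -36.6, +6.5 and +17.1 kb, of Notch2 at +167.4 and +198.0 kb, of Notch1 at +14.3 kb and of Dll1 at -3.9 kb. All 4 FB regions of Hes1 and 3 of 4 of Hes5 thus held it, and Notch2 +198.0 kb and Hes5 -0.2 kb held 3 matches each. These counts reach beyond the 200 bases printed above. The printed bases of Hes1 +65.3 kb hold 0 matches and those of Notch2 +198.0 kb hold 2. The E-box CAGCTG was in 7 of the 23 (30.4%), beside 26.8% of all FB regions. The homeodomain core TAATTA was in 6 of 23 (26.1%), beside 32.5%, and in 0 of the 55 regions shared by every library, beside 3.63%. CAATAAA was in 0 of the 3 DFL regions and 0 of the 8 limb regions, beside 19.6% of 2131 and 11.2% of 5333. A motif match is a description of the sequence, and binding was not measured here.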

How the data were processed

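ATAC-seq peak lists of 13 mouse libraries were used, 12 of them in 6 groups of 2. The members and gene lists were chosen with earlier results of these data known. The authors trimmed adapters with Cutadapt, mapped wt reads to mm10 and 542 reads to the mutant genome with bowtie2, removed duplicates with Picard, and called peaks in each library without a control with MACS2. The deposited fold is a ratio of tags under a summit to the local background of that library, so that a dense locus raises its own background. The caller also gave each summit a −log10 p-value and a −log10 q-value, deposited unchanged, and the deposited score, a rounded multiple of the −log10 q-value, was not used. No normalization between libraries entered the deposited values. The replicates are pools of different embryos, so that p-values measure the spread between such pools.

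Genes and starts were from GENCODE M21. Summits with the same region were taken as 1 region with its strongest summit. Regions of 12 libraries were joined at an overlap of at least 1 bp. Positions of 542 on chromosome 2 beyond the insertion were moved by 4218 bp, the median offset between genotypes. Tags were estimated from the most frequent background of each library and recovered for 95.3% to 99.0% of summits. Regions were ranked by −log10 q and then fold, and the region at rank 50000 had a −log10 q between 7.27 and 17.22. Log2 folds were compared with limma 3.58.1 in R 4.3.3 (quantile normalization, trend on the mean, two-sided), and other steps ran in Python 3.11.15 with pandas 2.3.3, numpy 2.4.6 and matplotlib 3.10.9. The procedure was tested on simulated data. Alternatives were all deposited regions, the 20000 strongest, 500 bp windows centred on summits, a minimum −log10 q of 10, other scalings, no trend, a replicate block, regions called in all 12 libraries and each library left out. The main fits did not pair samples by replicate number. Deviations of like-numbered libraries correlated between -0.037 and 0.016 over the genome, which cannot exclude a shared effect at single regions.

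All 10 genes were described, with regions picked by rule. Per tissue class these were the 3 regions with the highest mean fold and the first of each gene. Per fitted comparison they were up to 3 regions per direction with the smallest adjusted p. Up to 3 regions per tissue that were strong in 1 genotype were also picked. Hes1 -55.3 kb, Jag2 +120.9 kb, Dll3 +38.2 kb and Dll3 +93.2 kb were picked but are not described. The same holds for Notch2 +213.9 kb, Notch3 +93.3 kb and Notch3 -69.1 kb. Further regions were named after their values were seen. Motifs were searched on both strands of mm10. Sequences of some regions are not reported here.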

Additional observations from a re-analysis of the deposited data

Results flagged for a closer look

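The additional wt DFL library, which entered no group, held 250 regions near the 10 genes. Of these, 26 overlapped no region of the 12 libraries, with a fold of 1.87 to 3.32 (median 2.67), and 0 of the 26 were among the 50000 strongest of that library. They stand out only as signal outside the groups compared.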

How the results depend on the processing

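With the 20000 strongest regions the classes shrank, to 34 regions in every library, 9 in FB alone, 1 in both limb tissues, 1 in DFL alone and 0 in PFL alone, and to 2, 2 and 3 regions in 1 genotype only in DFL, PFL and FB. With a −log10 q of at least 10 the PFL class had 0 regions (beside 1.2% of 122816). PFL then had 16 regions in 1 genotype only, against 24 with all deposited regions. The 16 were 14 in wt only (beside 4.98%) and 2 in 542 only (beside 0.743%). The 24 were 22 (beside 4.46% of 264483) and 2 (beside 0.761%). Leaving out 1 library gave 55 to 56 regions in every library, 3 to 5 in DFL alone (5 without wt DFL replicate 2), 1 to 3 in PFL alone (2 without 542 DFL replicate 1 or wt PFL replicate 2, 3 without 542 PFL replicate 2), 23 to 26 in FB alone and 8 to 9 in both limb tissues. Regions in 1 genotype only then numbered 18 to 25 in DFL, 18 to 28 in PFL and 12 to 18 in FB. Fitted calls numbered 3 to 5 for DFL against PFL, 24 to 34 for DFL against FB, 17 to 27 for PFL against FB and 0 for each comparison of genotypes. Over regions called in all 12 libraries 4 of 75 regions differed between DFL and PFL, beside 2182 of 28404 in all. Without normalization 38 of 81 differed between PFL and FB, beside 14328 of 31147. With a replicate block, 1 of 124 regions was called between genotypes in DFL and 1 of 115 in PFL, with 0 of 145 in FB. Those called were Notch1 +136.0 kb (adjusted p = 0.0434) and Hes5 -82.9 kb (adjusted p = 0.0222). Over all regions the fit with the block called 114 of 61264, 224 of 58516 and 119 of 65760, against 6, 5 and 15 without it. The block moved the counts between tissues to 7, 30 and 24. With windows of 500 bp, the window matched to Dll3 -71.2 kb had 0.26 between PFL and FB, against -0.33 for the region itself. The adjacent region Dll3 -70.5 kb, at the start of Plekhg2, had 0.26 ± 0.10 (SE, log2) in the main fit. Whether the window joined both regions was not tested. Depth limits calls of weak regions, and absence from a list can be a lower rank.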
